A study of Homo sapiens with 4 samples.

Results

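The histone cluster genes described here are the genes whose symbol starts with HIST1, HIST2, HIST3 or HIST4, the 4 clusters that hold the canonical histone genes. The deposited expression tables list 73 of them among 25343 genes: 6 of class H1, 18 of H2A, 20 of H2B, 14 of H3 and 15 of H4. A member was used in a cell line where its mean over the control and the knockdown library was at least 0.25 CPM, read counts per 1000000 reads. That left 36 of the 73 members in C4-2B ENZR, of 15820 genes that passed the same filter, and 39 of the 73 in LNCaP, of 15869. In both lines 33 passed, and 16 members in C4-2B ENZR and 14 in LNCaP had 0 reads in both libraries, which allows up to 0.122 and 0.0614 CPM. The members nearest the filter in C4-2B ENZR were HIST1H2AK with a mean of 0.243 CPM, outside it, and HIST2H3D with 0.264 CPM, inside it. In LNCaP they were HIST1H3A with 0.239 CPM, outside, and HIST1H2AL with 0.28 CPM, inside.

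RNA sequencing covered 4 libraries from 2 human prostate cancer cell lines, with 1 library in each group. LNCaP is an androgen-responsive line, and C4-2B ENZR is a related line resistant to the antiandrogen enzalutamide. All 4 cultures had been infected with a lentivirus and selected with an antibiotic. The control of each line carried a non-targeting hairpin, and the knockdown carried one aimed at the MAOA coding sequence, MAOA being the gene of monoamine oxidase A, a mitochondrial enzyme that breaks down serotonin and noradrenaline. Both lines grew in RPMI 1640 with 10% fetal bovine serum. C4-2B ENZR was also kept in 20 µM enzalutamide, in the control as in the knockdown, and LNCaP was not, so line and drug cannot be told apart. RNA came from whole selected cultures, in which fewer cells of a kind and less RNA per cell cannot be told apart.

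Canonical histone genes supply the histones that package newly copied DNA, and most of their mRNA is made while cells replicate their genome. H2A, H2B, H3 and H4 form the core of the nucleosome, and H1, the linker histone, binds where DNA enters and leaves it. Most canonical histone mRNAs end in a short stem-loop instead of a poly(A) tail. The stem-loop binding protein SLBP holds this end during processing and translation, and the mRNA is degraded when replication stops. Some cluster genes are also transcribed past the stem-loop into a polyadenylated mRNA, mostly in cells that have left the cycle or are differentiating. From textbook knowledge HIST1H1C, HIST1H2AC, HIST1H2BC, HIST1H2BD, HIST1H2BJ, HIST1H2BK and HIST2H2BE were taken as this polyadenylated subset of 7 members. The protocols give total RNA and standard Illumina library preparation, and a poly(A) selection step is neither stated nor denied in the sources used here.

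The stem-loop ends the histone mRNAs that have no tail, and it is shown for 7 members that the results turn on, with 5 bases on each side and the 16 bases of the stem-loop in capitals. The sequences were read from GENCODE release 29 transcripts (GRCh38).
HIST1H2AC: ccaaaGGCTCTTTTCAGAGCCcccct
HIST1H2BD: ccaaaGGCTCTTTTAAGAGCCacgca
HIST2H2BE: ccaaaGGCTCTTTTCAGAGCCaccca
HIST2H2AA3: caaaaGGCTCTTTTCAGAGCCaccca
HIST3H2A: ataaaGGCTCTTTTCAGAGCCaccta
HIST1H3H: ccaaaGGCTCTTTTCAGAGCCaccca
HIST2H4B: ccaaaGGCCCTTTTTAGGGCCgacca
They lie at chr6:26124664-26124689 (plus strand) for HIST1H2AC, chr6:26158582-26158607 (plus) for HIST1H2BD, chr1:149886183-149886208 (minus) for HIST2H2BE and chr1:149842218-149842243 (minus) for HIST2H2AA3. HIST3H2A has it at chr1:228457364-228457389 (minus), HIST1H3H at chr6:27810511-27810536 (plus) and HIST2H4B at chr1:149860764-149860789 (minus). All are in the 3′ UTR. The annotated transcript went on for 1114 bases past the stem-loop in HIST1H2AC-202, for 1729 bases in HIST2H2BE and for 35 bases in HIST2H2AA3. At least 1 annotated transcript of 32 of the 73 members held the stem-loop, against 3 of 19599 other protein-coding genes. Here and for the tail signal below, members were searched over all annotated transcripts, the other genes over protein-coding transcripts only. A tail signal was read as the letters AATAAA (or, as the common variant, ATTAAA) on the sense strand within the last 50 bases of a transcript. These letters were found for 24 members (32.9%), for 5 of the polyadenylated subset and for 82.1% of the other protein-coding genes. Some members have only short models with neither feature, such as HIST1H1C with 642 bases and HIST1H2BK with 381. For such members a missing stem-loop or tail signal says only that the letters are not in the model.

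The reads per library and the labels were examined first. In C4-2B ENZR 23479051 reads were recovered for the control library and 23679869 for the knockdown library, and in LNCaP 52550452 and 52012696. MAOA stood at 327 CPM in the C4-2B ENZR control and 219 in its knockdown, and at 445 and 139.5 in LNCaP. It fell over both lines (mean log2 ratio -1.13, SE 0.17, limma adjusted p = 0.000227), in the direction of its label. The call did not hold with no filter on low values (limma adjusted p = 0.0597), with TMM, the trimmed mean of M-values, recomputed (limma adjusted p = 0.077) or by DESeq2 (adjusted p = 0.324), where the mean log2 ratio lay between -1.13 and -1.19. All 10 luminal epithelial markers, KRT8 and EPCAM among them, were measured in both lines, and none passed limma's test over both lines. Their log2 ratios ran from -0.16 to 0.73 in C4-2B ENZR and from -0.23 to 0.23 in LNCaP. Of 10 markers of other cell types, 4 passed the filter in C4-2B ENZR and, for LNCaP, 6. These 10 together summed to 59.2 and 67.7 CPM in C4-2B ENZR and, for LNCaP, 88.2 and 105 (control, knockdown), most of it COL1A1, while CD3E was at 0 in all 4 libraries, COL3A1 and KRT5 in C4-2B ENZR and DCN in LNCaP. Their part in the histone results was not tested. In LNCaP the deposited scaling put the median log2 ratio over all genes at 0.11, and at 0.14 over genes with a mean of at least 10 CPM, where recomputed scaling puts the first at 0. In C4-2B ENZR these medians were 0 and -0.01.

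Summed over all members, histone cluster transcripts were lower with MAOA knockdown in C4-2B ENZR and higher in LNCaP. Their summed level was 149.9 CPM in the C4-2B ENZR control and 114 CPM in its knockdown, 76% of the control, a log2 ratio of -0.40 with a 95% interval from -0.47 to -0.32. The sum was 292 CPM in the LNCaP control and 445 in its knockdown, 153% of the control, with a log2 ratio of 0.61 and an interval from 0.58 to 0.64. These exact conditional intervals cover counting error only, because each group has 1 library. The summed log2 ratio of LNCaP was 0.47 when ratios were centred on the median of genes with at least 10 CPM, and 0.49 with TMM recomputed. As a share of all reads, histone cluster genes took 158 and 118 reads in 1000000 in C4-2B ENZR (control, knockdown) and, for LNCaP, 315 and 418. A few genes made most of the LNCaP difference, HIST2H2BE (37.6 and 87.7 CPM), HIST1H1C (60.2 and 93.8) and HIST1H2BD (12 and 41.2). The 2 tables were normalized separately, so levels are not compared between the lines.

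**Figure D1:**
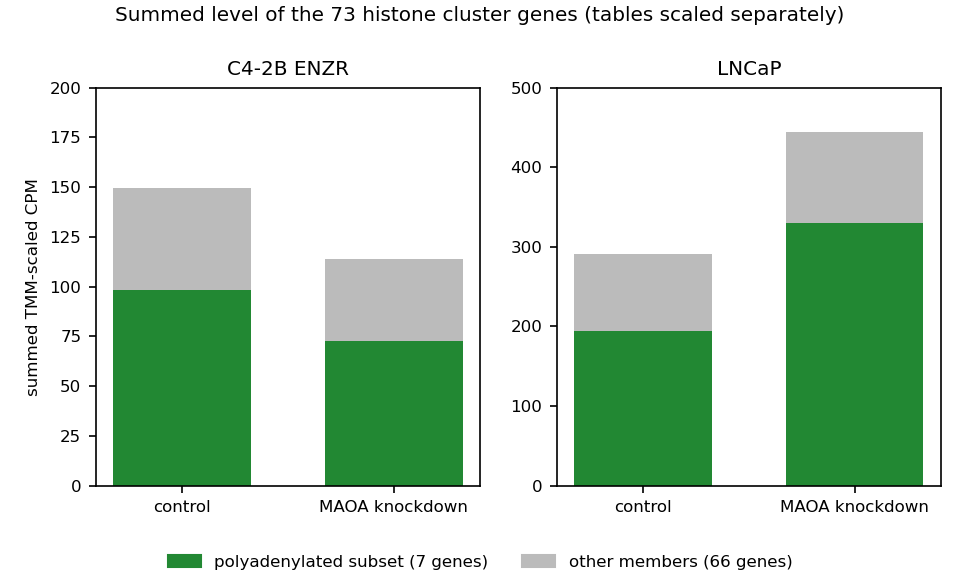
Summed TMM-scaled CPM of all 73 histone cluster genes in each library, with 1 panel and 1 scale per line; green is the polyadenylated subset and grey the other members. The sum went from 149.9 to 114 in C4-2B ENZR and, for LNCaP, from 292 to 445, where the green part went from 194 to 330.3.

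Member by member, the C4-2B ENZR ratios lay mostly below 0 and the LNCaP ratios were spread to both sides. Ratios are log2 of (knockdown CPM + 0.25)/(control CPM + 0.25). In C4-2B ENZR 27 of 36 members were lower in the knockdown and 9 higher, with a median log2 ratio of -0.30. Among all C4-2B ENZR genes 51% were higher, with a median of 0. By level, 8 of the 17 members under 1 CPM were higher (47.1%, median -0.07), against 55% of all genes at that level. Between 1 and 10 CPM 1 of 16 was, HIST3H2A, against 56.5%, and at 10 CPM or more none of 3, against 48.2%. In LNCaP 25 of 39 members were higher (64.1%) with a median of 0.25, against 64.8% of all genes and their median of 0.11. Under 1 CPM 6 of 12 LNCaP members were higher (median 0.02), against 52.7% of all genes at that level, and between 1 and 10 CPM 12 of 20 (60%, median 0.19), against 57.6%. All 7 with a mean of at least 10 CPM were higher, with a median of 0.64, against 70.1%. These are HIST1H1C, HIST1H2AC, HIST1H2BD, HIST1H2BK and HIST2H2BE, of the polyadenylated subset, and the copies HIST2H2AA3 and HIST2H2AA4, which have equal values. With the LNCaP ratios centred as above, 24 of 39 members (61.5%) and 46.7% of all genes were higher.

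Few members differed 2-fold within a line. In C4-2B ENZR HIST1H2AC and HIST1H4J were at least 2-fold lower, 2 of 36 members (5.56%), against 0.544% of all genes. At the level of HIST1H4J, 0.25 to 1 CPM, the share of all genes was 2.29%, and at that of HIST1H2AC, 1 to 10 CPM, it was 0.811%. HIST1H4K was 2-fold higher, 1 of 36 (2.78%), against 0.803%, and against 2.74% of all genes at 0.25 to 1 CPM. In LNCaP HIST1H2BD and HIST2H2BE were at least 2-fold higher, 2 of 39 (5.13%), against 1.18% of all genes. At their level, 10 CPM or more, the share of all genes was 0.645%. No LNCaP member past the filter was 2-fold lower, against 0.668%. HIST1H3A, which the filter left out there at a mean of 0.239 CPM, went from 26 reads to 1 in LNCaP (log2 ratio -1.39, and -4.48 without the pseudocount, -9.84 to -1.88). The counting interval lay below equality for 9 of 36 members in C4-2B ENZR (25%; all genes 19.5%) and above it for 1, HIST1H4K (all genes 19.5%). The 9 hold HIST2H2AA3 with its copy HIST2H2AA4, and HIST2H3A with its copy HIST2H3C, each pair with equal values. They also hold HIST1H4J, whose sum with its copy HIST1H4K had an interval that included equality. The 25% is therefore not a clear excess over all genes. In LNCaP it lay above for 13 of 39 members (33.3%), a smaller share than the 44.4% of all genes, and below for 3 (7.69%; all genes 18%). Shares of intervals depend on depth, and most members are low.

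**Figure D2:**
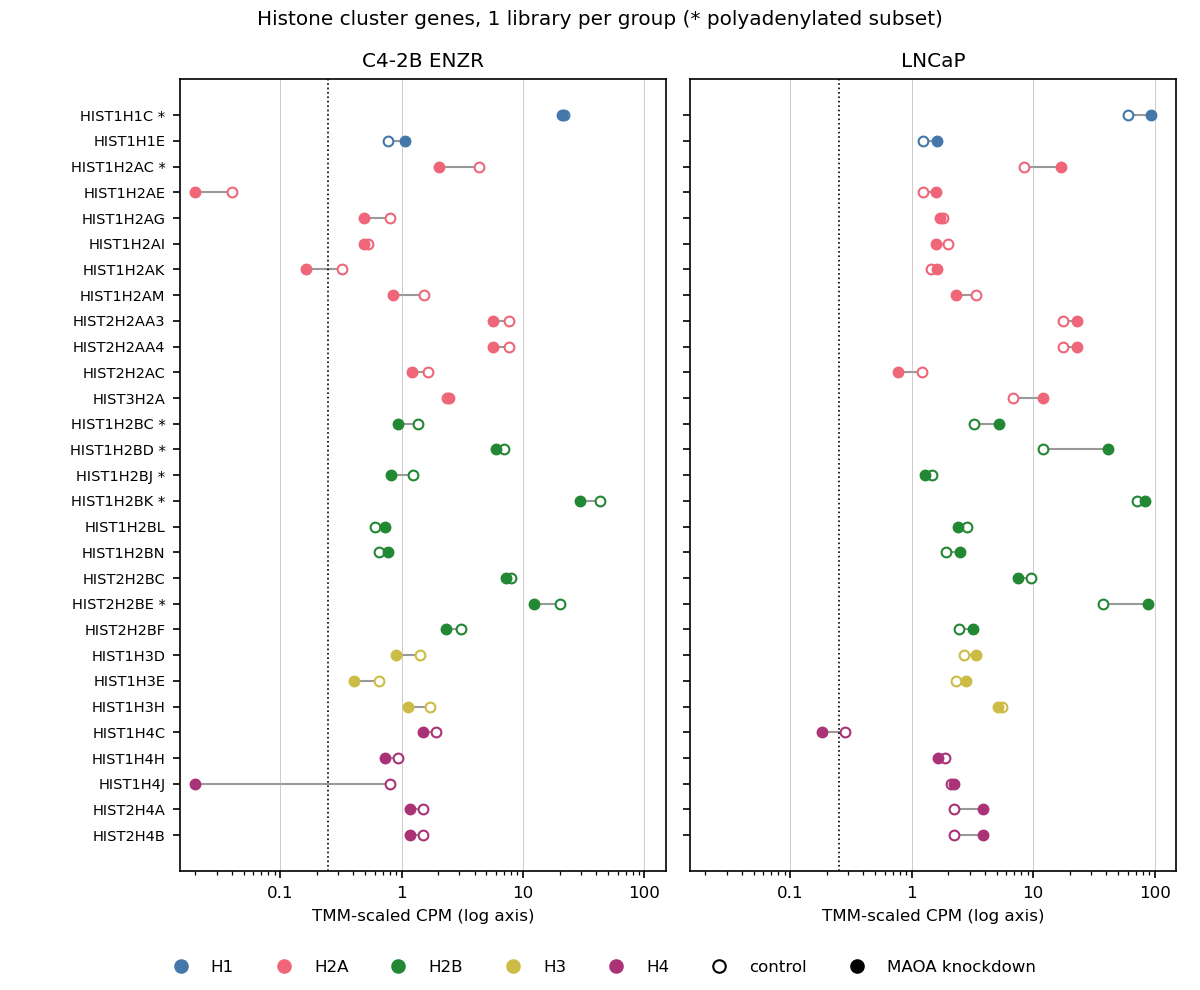
Level of each member with a mean of at least 1 CPM in either line, on a log axis, with open circles for the control and filled circles for the MAOA knockdown (1 library each); values of 0 are drawn at 0.02, the dotted line is the 0.25 CPM filter and asterisks mark the polyadenylated subset. HIST1H2BD has the widest gap in the LNCaP panel, from 12 to 41.2 CPM, and in C4-2B ENZR HIST1H4J runs from 0.809 to 0.

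The linker histones were almost entirely HIST1H1C, the gene of linker histone H1.2. It stood at 21.6 CPM in the C4-2B ENZR control and 21 in its knockdown, and at 60.2 and 93.8 CPM in LNCaP. The C4-2B ENZR libraries lay close together and the LNCaP knockdown was higher. The log2 ratios were -0.04 (interval -0.22 to 0.14) and 0.64 (0.58 to 0.70). HIST1H1E, the gene of H1.4, had 0.768 and 1.06 CPM in C4-2B ENZR and, for LNCaP, 1.23 and 1.62, with ratios of 0.36 and 0.33 whose intervals included equality. HIST1H1B passed the filter in C4-2B ENZR only, with a ratio of -0.10, and 3 H1 members passed it in no line. The H1 sum had a log2 ratio of -0.02 (-0.19 to 0.15) in C4-2B ENZR and 0.63 (0.57 to 0.69) in LNCaP. In C4-2B ENZR it turned to 0.37 without HIST1H1C, on 28 and 36 reads.

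Among the H2A genes, 7 of 8 measured members were lower in C4-2B ENZR, while the LNCaP members were divided, 6 of 11 being higher. HIST1H2AC, of the polyadenylated subset, had 4.37 CPM in the C4-2B ENZR control and 2.03 in the knockdown, and 8.33 and 16.9 CPM in LNCaP. It thus stood at 46.6% of the control in C4-2B ENZR (log2 ratio -1.02, -1.62 to -0.61) and at 203% in LNCaP (1.00, 0.85 to 1.18), just under 2-fold on the log2(CPM + 0.25) scale. HIST2H2AA3 and HIST2H2AA4, near-identical copies with the same deposited values, together had 15.4 and 11.3 CPM in C4-2B ENZR and, for LNCaP, 35.1 and 45.7. They too were lower in C4-2B ENZR (-0.44, -0.67 to -0.22) and higher in LNCaP (0.38, 0.29 to 0.47). HIST3H2A, the cluster 3 H2A gene, had 2.35 and 2.44 CPM in C4-2B ENZR (0.05, -0.49 to 0.60) and, for LNCaP, 6.89 and 12.1 (0.79, 0.63 to 1.00). It was thus higher in the LNCaP knockdown and nearly level in C4-2B ENZR.

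Some H2A members were lower in both lines. HIST1H2AM had 1.54 and 0.854 CPM in C4-2B ENZR (-0.69, -1.69 to -0.04) and, for LNCaP, 3.40 and 2.33 (-0.50, -0.89 to -0.20). It shares 86.3% of its 50-base stretches with HIST1H3J, whose annotated exons overlap it on the same strand. Reads of these stretches cannot be told apart, with or without use of strand. HIST2H2AC had 1.66 and 1.22 CPM (-0.38, -1.17 to 0.27) and 1.22 and 0.778 CPM (-0.51, -1.26 to -0.05). HIST1H2AI was at -0.07 in C4-2B ENZR, on 13 and 12 reads, and at -0.28 in LNCaP, on 113 and 78, with intervals that included equality. It shares 62.3% of its 50-base stretches with HIST1H2AJ, and summed with that copy it was above 0 in C4-2B ENZR, on 15 and 19 reads (0.35, -0.71 to 1.43). HIST1H2AL, with 19 and 11 reads in LNCaP (-0.30), had 1 and 0 reads in C4-2B ENZR, too few for a ratio. The H2A sum had a log2 ratio of -0.47 (-0.64 to -0.30) in C4-2B ENZR and 0.45 (0.38 to 0.52) in LNCaP. The median over measured H2A members was -0.43 and 0.14, and the LNCaP median became -0.03 when both libraries were set to an equal sum.

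The H2B genes carried the largest share of histone reads of any class, 57.5% and 54.2% in C4-2B ENZR (control, knockdown) and, for LNCaP, 49.5% and 53.4%. The leading member HIST1H2BK had 42.9 and 29.6 CPM in C4-2B ENZR and, for LNCaP, 71.4 and 84.1. It was lower in the first line (-0.53, -0.67 to -0.40) and higher in the second (0.24, 0.17 to 0.30). Its annotated model shares 74.1% of its 50-base stretches with other genes, so its level depends on how the counting divided such reads. HIST2H2BE, whose mRNA is known to be made outside replication as well, had 20.1 and 12.3 CPM in C4-2B ENZR (-0.69, -0.92 to -0.50). In LNCaP it had 37.6 and 87.7 CPM, 233% of the control (1.22, 1.15 to 1.3). The knockdown was therefore the lower library in one line and the higher in the other.

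HIST1H2BD had the largest LNCaP ratio of all members. It stood at 12 CPM in the LNCaP control and 41.2 in the knockdown, on 679 and 2013 reads, 344% of the control (1.76, 1.66 to 1.91). In C4-2B ENZR it had 6.91 and 5.94 CPM, and the interval of the ratio included equality (-0.21, -0.55 to 0.11). Only 5.4% of its 50-base stretches occur in another gene, HIST1H2BC. HIST1H2BC itself had 1.37 and 0.935 CPM in C4-2B ENZR (-0.46, -1.39 to 0.25) and, for LNCaP, 3.28 and 5.26 (0.64, 0.40 to 0.96). HIST1H2BJ was lower in the knockdown of both lines, from 1.25 to 0.813 CPM (-0.50, -1.51 to 0.23) and from 1.48 to 1.29 CPM (-0.17, -0.69 to 0.29), with intervals that included equality. It was the single polyadenylated member below 0 in LNCaP.

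Outside the polyadenylated subset the measured H2B genes had ratios from -0.39 to 0.20 in C4-2B ENZR and from -0.36 to 0.75 in LNCaP. HIST2H2BC, annotated as a pseudogene, was the most abundant of these, with 7.97 and 7.20 CPM in C4-2B ENZR (-0.14, -0.45 to 0.15) and, for LNCaP, 9.64 and 7.47 (-0.36, -0.56 to -0.17). HIST2H2BF had 3.11 and 2.32 CPM in C4-2B ENZR (-0.39, -0.95 to 0.09) and, for LNCaP, 2.45 and 3.19 (0.35, 0.04 to 0.72). HIST1H2BF was at 0.581 and 1.15 CPM in LNCaP (0.75, 0.33 to 1.65), and its C4-2B ENZR value rests on 9 and 8 reads. HIST1H2BL had a ratio of 0.20 in C4-2B ENZR and -0.22 in LNCaP, and HIST1H2BN ratios of 0.19 and 0.34, all with intervals that included equality. In LNCaP the 5 polyadenylated H2B genes summed to 126 CPM (control) and 219.6 CPM (knockdown) (0.80, 0.76 to 0.85), while the other 15 summed to 18.5 and 18 (-0.04, -0.17 to 0.09). In C4-2B ENZR the same sums were 72.6 and 49.7 CPM (-0.55, -0.65 to -0.44) and 13.6 and 12.1 CPM (-0.17, -0.40 to 0.06).

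The H3 genes had the lowest sum ratio of the classes in C4-2B ENZR and an LNCaP sum ratio whose interval included equality. Their sum was 6.03 and 3.58 CPM in C4-2B ENZR (-0.75, -1.15 to -0.36) and, for LNCaP, 13.1 and 13.2 (0.01, -0.14 to 0.16). The LNCaP value turned to -0.13 when centred and to -0.11 with recomputed TMM. The leading member HIST1H3H had 1.70 and 1.14 CPM in C4-2B ENZR (-0.49, -1.32 to 0.15) and, for LNCaP, 5.57 and 5.14 (-0.11, -0.36 to 0.13). HIST2H3A and HIST2H3C, near-identical copies, summed to 1.46 and 0.488 CPM in C4-2B ENZR on 36 and 12 reads, 33.5% of the control (-1.58, -2.65 to -0.60, without the pseudocount). In LNCaP they summed to 1.23 and 0.982 CPM (-0.33, -0.89 to 0.22). Their copy HIST2H3D went the other way in C4-2B ENZR on 5 and 8 reads, and the 3 copies together had 41 and 20 reads (-1.03, -1.88 to -0.22).

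HIST1H3D, with 1.42 and 0.895 CPM in C4-2B ENZR (-0.54) and, for LNCaP, 2.71 and 3.40 (0.30), shares its whole annotated model with another annotated gene, AL031777.3. HIST1H3E had 0.647 and 0.407 CPM (-0.45) and 2.31 and 2.78 CPM (0.25). The intervals of HIST1H3E included equality in both lines.

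The H4 genes include copies between which the counting may have divided reads. HIST1H4J had 0.809 CPM in the C4-2B ENZR control, 20 reads, and 0 reads in the knockdown, at least 6.63-fold lower when 0 is read as 3 reads. Its near-identical copy HIST1H4K had 0 reads in that control and 0.529 CPM, 13 reads, in the knockdown, at least 4.36-fold higher. Every 50-base stretch of HIST1H4K occurs in HIST1H4J, and together they had 20 and 13 reads, with an interval that included equality (-0.61, -1.74 to 0.47). In LNCaP HIST1H4J had 2.1 and 2.25 CPM and HIST1H4K 0 reads in both libraries. These copies are therefore uncertain, and they supply 2 of the 3 members that were 2-fold apart in C4-2B ENZR. With both at their bounds the median over the 36 members was still -0.30.

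HIST2H4A and HIST2H4B, a further near-identical pair with equal values, summed to 2.99 and 2.36 CPM in C4-2B ENZR (-0.34, -0.86 to 0.17) and, for LNCaP, to 4.44 and 7.78, 175% of the control (0.81, 0.58 to 1.04). HIST1H4C led the class in C4-2B ENZR with 1.94 and 1.5 CPM (-0.32, -1.03 to 0.28) and did not pass the filter in LNCaP. HIST1H4H had 0.93 and 0.732 CPM (-0.27) and 1.89 and 1.66 CPM (-0.16). HIST1H4A had the highest C4-2B ENZR ratio after HIST1H4K, 0.44, on 8 and 13 reads, and HIST1H4E had 0.36, on 8 and 12 reads. The cluster 4 gene HIST4H4 had 0 reads in both C4-2B ENZR libraries and 0.352 and 0.471 CPM in LNCaP (0.26). The H4 sum had a log2 ratio of -0.24 (-0.56 to 0.07) in C4-2B ENZR and 0.39 (0.23 to 0.55) in LNCaP.

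**Figure D3:**
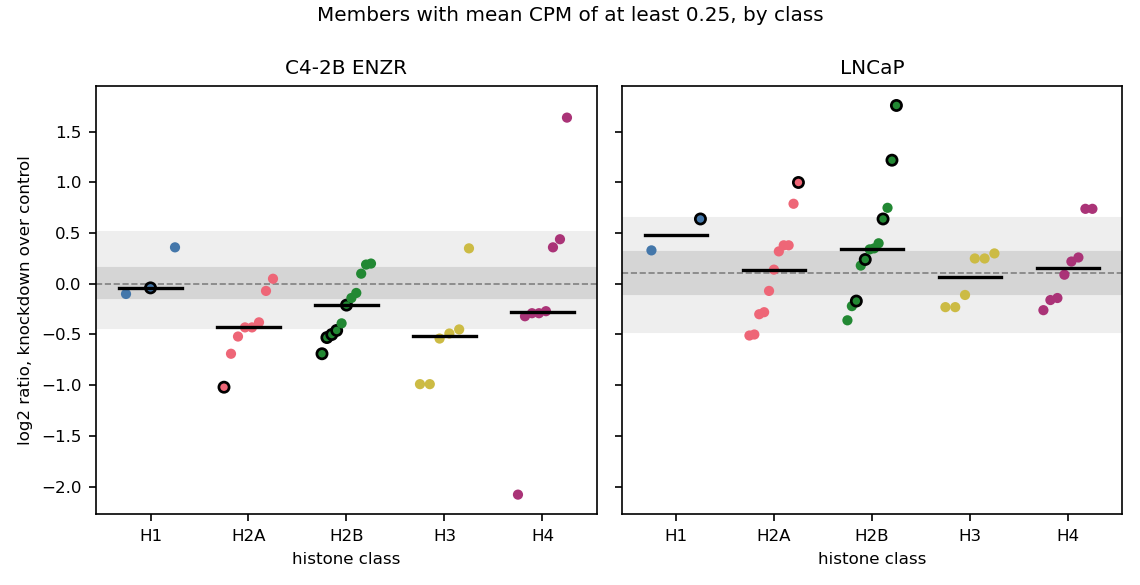
Log2 ratio, knockdown over control, of each member with a mean of at least 0.25 CPM, by class and line; black bars are class medians, black outlines the polyadenylated subset, the dark and light bands the central 50% and 90% of all genes and the dashed line their median. Class medians in C4-2B ENZR run from -0.51 (H3) to -0.04 (H1), and in LNCaP from 0.07 (H3) to 0.48 (H1).

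Split by the textbook list, the genes of the polyadenylated subset supplied most of the reads. No mRNA end was measured. A stem-loop is annotated in 4 of these 7 genes, so their reads can come from either form of mRNA. The 7 members summed to 98.5 and 72.7 CPM in C4-2B ENZR, 65.8% and 63.8% of histone cluster reads. In LNCaP they summed to 194 and 330.3 CPM, a share of 66.6% in the control and 74.3% in the knockdown. The sum had a log2 ratio of -0.44 (-0.53 to -0.35) and of 0.77 (0.73 to 0.80). The other 66 members summed to 51.3 and 41.2 CPM in C4-2B ENZR (-0.32, -0.44 to -0.20) and, for LNCaP, to 97.2 and 114 (0.24, 0.18 to 0.29). By medians, all 7 were lower in C4-2B ENZR (median -0.50, range -1.02 to -0.04) and 6 of 7 higher in LNCaP (median 0.64, range -0.17 to 1.76). The 29 other members measured in C4-2B ENZR had a median of -0.29 and the 32 in LNCaP one of 0.20, where all genes of that table had 0.11. The ranges of the subsets overlap in both lines, and the difference between the subsets has no test with 1 library per group.

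The tail signal letters found in GENCODE models gave a split in the same direction, but 5 of the 7 polyadenylated members are on its tail side. The splits thus share members and values and are not separate observations. HIST1H1C and HIST1H2BK, with no signal in their models, fall on the other side. HIST1H4J and its copy HIST1H4K are split between the sides. The HIST1H4J model ends 6 bases past its stem-loop, so its match lies before the stem-loop and marks no tail after it. HIST1H4J is still counted on the tail side. The 21 measured members with such a match had a median of -0.43 in C4-2B ENZR, against -0.07 for the 15 without. In LNCaP the medians were 0.34 for 21 members and 0.21 for 18. Of other RNAs known to lack a poly(A) tail, such as RMRP and RPPH1, the RNA parts of the RNase MRP and RNase P enzymes, 8 of the 17 listed in the tables passed the filter in both lines. The 17 together summed to 11.9 and 11.8 CPM in C4-2B ENZR and, for LNCaP, 5.92 and 8.64 (control, knockdown), and the 8 measured had median log2 ratios of -0.08 and, for LNCaP, 0.57. RPPH1 went from 1.82 to 1.10 CPM in C4-2B ENZR (-0.62) and, for LNCaP, from 0.634 to 1.88 CPM (1.27). None of the 8 passed the test over both lines. The part that recovery of RNA without a tail has in the histone results was not tested.

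Promoters were examined because many H2A and H2B genes start back to back from one shared region. The octamer ATTTGCAT, the site class bound by POU2F1 (OCT1) in histone promoters, was searched on both strands from 250 bases before to 50 bases after each RefSeq start (GRCh38.p14). It occurred in 26 of 65 members with a promoter entry, 11 of 16 H2A, 14 of 18 H2B, 1 of 12 H3 and none of the H1 and H4 members, against 1.774% of 35116 promoters. The 1 H3 member was HIST1H3D, whose RefSeq window is the same as that of HIST1H2AD, so this octamer is counted under both. The octamer is shown in capitals with 12 bases on each side, 5′ to 3′ on the strand of the gene, for the 5 members of the polyadenylated subset that hold it and for HIST2H2AC, which starts back to back with HIST2H2BE.
HIST1H2AC: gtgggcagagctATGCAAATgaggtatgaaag
HIST1H2BC: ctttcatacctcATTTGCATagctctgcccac
HIST1H2BJ: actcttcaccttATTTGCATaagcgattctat
HIST1H2BK: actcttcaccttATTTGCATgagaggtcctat
HIST2H2AC: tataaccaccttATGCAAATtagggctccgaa
HIST2H2BE: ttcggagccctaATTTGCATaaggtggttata
Of 13 pairs of members that start back to back within 1000 bases, 6 had both members measured in both lines, and 3 of these 6 had like signs in both. The 13 count the start region shared by HIST1H2AD and HIST1H3D under both names, each paired with HIST1H2BF. HIST1H2AC and HIST1H2BC start 246 bases apart on opposite strands and hold the same octamer, as do HIST2H2BE and HIST2H2AC, 236 bases apart. The first pair had like signs, -1.02 and -0.46 in C4-2B ENZR and, for LNCaP, 1.00 and 0.64. The second pair did not in LNCaP, with 1.22 for HIST2H2BE and -0.51 for HIST2H2AC, while in C4-2B ENZR the ratios were -0.69 and -0.38. HIST1H2BJ and HIST1H2AG, 248 bases apart and also holding the same octamer, had ratios of -0.50 and -0.52 in C4-2B ENZR. In LNCaP these were -0.17 and -0.07. HIST1H2AM and HIST1H2BO, 240 bases apart, hold the same octamer too but had opposite signs in both lines. Their ratios were -0.69 and 0.10 in C4-2B ENZR and, for LNCaP, -0.50 and 0.18. HIST1H3D and HIST1H2BF, 223 bases apart by RefSeq starts and with the same octamer, had like signs, -0.54 and -0.09 and, for LNCaP, 0.30 and 0.75. The RefSeq start of HIST1H3D is also that of HIST1H2AD, and its GENCODE model lies apart from it, at chr6:26196840-26197250. This pair is therefore a less certain case of a shared start region. HIST1H2BL and HIST1H2AI, 244 bases apart with no octamer, had 0.20 and -0.07 and, for LNCaP, -0.22 and -0.28.

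Over the measured H2A and H2B members, those with an octamer had a median of -0.50 in C4-2B ENZR (11 members) and 0.24 in LNCaP (13), and those with none in the window -0.07 (7) and 0.38 (9). Their sums had log2 ratios of -0.59 and 0.63 with an octamer and -0.30 and 0.79 without. HIST1H2BD, the member with the largest LNCaP ratio, had no match to these letters in its window. It supplied 12 and 41.2 CPM of the LNCaP sums without an octamer, 62.4 and 108 CPM. HIST1H2AC, HIST1H2BC, HIST1H2BJ, HIST1H2BK and HIST2H2BE, of the polyadenylated subset, are on the octamer side. The octamer split thus shares members and values with the splits above and is not a separate observation. The promoter windows of HIST2H2BE, HIST1H2BD and HIST1H1C, the 3 members of the polyadenylated subset with the largest differences in CPM in LNCaP, are printed 5′ to 3′. Capitals mark the octamer, the CCAAT box, the TATA element in the form TATAAA, and an element of H1 promoters with the letters AAACACA. Each was searched on both strands, so that a match to the other strand appears as its reverse complement.
HIST2H2BE: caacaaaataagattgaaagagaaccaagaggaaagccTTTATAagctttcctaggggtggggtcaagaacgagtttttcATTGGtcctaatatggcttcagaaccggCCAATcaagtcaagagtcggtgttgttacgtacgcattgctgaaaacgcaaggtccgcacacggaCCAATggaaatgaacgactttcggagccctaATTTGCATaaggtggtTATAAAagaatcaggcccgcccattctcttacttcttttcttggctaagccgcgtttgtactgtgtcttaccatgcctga
HIST1H2BD: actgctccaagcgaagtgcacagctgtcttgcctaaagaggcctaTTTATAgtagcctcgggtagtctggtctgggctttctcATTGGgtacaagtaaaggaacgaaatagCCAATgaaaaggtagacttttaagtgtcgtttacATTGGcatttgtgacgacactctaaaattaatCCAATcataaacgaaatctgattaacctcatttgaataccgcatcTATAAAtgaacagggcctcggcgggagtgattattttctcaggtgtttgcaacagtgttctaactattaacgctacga
HIST1H1C: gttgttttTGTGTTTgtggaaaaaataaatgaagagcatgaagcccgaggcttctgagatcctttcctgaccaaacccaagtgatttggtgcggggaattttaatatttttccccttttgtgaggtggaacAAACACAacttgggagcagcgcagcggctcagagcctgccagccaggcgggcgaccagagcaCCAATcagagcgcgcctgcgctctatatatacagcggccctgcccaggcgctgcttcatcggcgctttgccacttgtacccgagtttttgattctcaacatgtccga
They lie at chr1:149886633-149886932 (minus strand), chr6:26157871-26158170 (plus) and chr6:26056421-26056720 (minus). CCAAT occurred in 34.614% of all promoters and in 55 of 65 members, TATAAA in 11.53% and 43, and AAACACA in 5.644% and 9, all 6 H1 members with an entry among these. No match overlaps another in the printed windows, and a match is not evidence of binding.

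The directions in the lines were set side by side for the 33 members measured in both. Lower in C4-2B ENZR and higher in LNCaP were 15 of 33 (45.5%), against 26% of all genes measured in both. The reverse held for 2 members, HIST1H2BL and HIST1H4A, while 6 were higher in both lines and 10 lower in both. Copies with equal values count as separate members here. HIST2H2AA3 with HIST2H2AA4, and HIST2H4A with HIST2H4B, are among the 15, and HIST2H3A with HIST2H3C among the 10. With both lines centred, 14 of 33 members and 15.4% of all genes were lower in C4-2B ENZR and higher in LNCaP. A difference between the lines has no test here, since 4 libraries leave no residual degree of freedom for it.

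**Figure D4:**
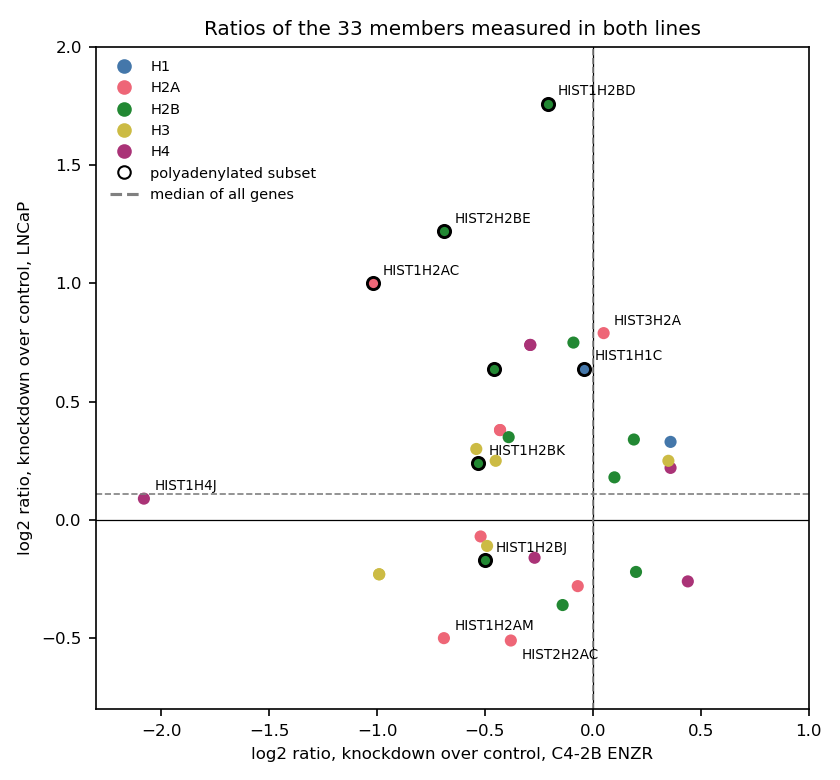
Log2 ratio in C4-2B ENZR (x) against LNCaP (y) for the 33 members measured in both lines, coloured by class, with black outlines for the polyadenylated subset and dashed lines at the median of all genes. HIST1H2BD, HIST2H2BE and HIST1H2AC lie at the upper left, with LNCaP ratios of 1.76, 1.22 and 1.00 and C4-2B ENZR ratios of -0.21, -0.69 and -1.02.

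Over both lines, no member rose and none fell. The test was limma, run on both lines' ratios for 15095 genes, with 1 residual degree of freedom, 23.9 prior degrees of freedom and Benjamini-Hochberg adjustment at 0.05. Of all genes 2.04% rose and 0.742% fell. Among the 33 members 4 had an unadjusted p under 0.05, 2 in each direction, a share of 12.1% against 16.9% of all genes. HIST1H2BD came nearest (mean log2 ratio 0.78, SE 0.25, limma adjusted p = 0.105), with a ratio above 0 in 1 of 2 lines. HIST1H4J followed (-1, SE 0.35, adjusted p = 0.128), a value that rests on 20 and 0 reads in C4-2B ENZR. HIST1H2AM, lower in 2 of 2 lines, had -0.60 (SE 0.24, adjusted p = 0.192), and HIST1H1C had 0.30 (SE 0.14, adjusted p = 0.292). On recovered reads, edgeR's quasi-likelihood test with the deposited scaling called 1 member, HIST1H2BD, which rose (adjusted p = 0.00546), while 3.18% of all genes rose by it and 1.07% fell. With recomputed TMM edgeR called no member (2 at an unadjusted p under 0.05), and 0.583% of all genes rose and 0.371% fell. DESeq2 called no member (0 at an unadjusted p under 0.05), and by it 0.888% of all genes rose and 0.583% fell. With the lines as the only replicates these p-values weigh a mean of 2 ratios against a variance that is mostly shared between genes.

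Genes around the histone genes were taken from lists by role. The 12 histone genes outside the clusters, such as H3F3A and H3F3B for H3.3 and H2AFZ for H2A.Z, had medians of -0.02 in C4-2B ENZR and 0.07 in LNCaP, and none passed limma's test over both lines. H1F0, the gene of the linker histone H1.0 and the most abundant of them in C4-2B ENZR, went from 470.4 to 494 CPM there (0.07, 0.03 to 0.11) and from 209.5 to 362 CPM in LNCaP (0.79, 0.75 to 0.82). In LNCaP H1FX, a further linker histone gene, was the most abundant, with 536 and 552 CPM (0.04). H2AFJ had the lowest C4-2B ENZR ratio of the list, -0.39, and H3F3C the highest there, 0.39, and the lowest in LNCaP, -1.11, on 34 and 7 reads. The 18 genes of histone mRNA transcription and 3′ processing had medians of -0.08 and 0.02, and none passed. LSM10 and LSM11, subunits of the U7 particle that cuts histone pre-mRNA, had the lowest and the highest C4-2B ENZR ratio, -0.35 and 0.35, and in LNCaP -0.24 and 0.28. For their roles, and with their values known, SLBP, NPAT and POU2F1 are given as well. SLBP had 92.8 and 84.8 CPM in C4-2B ENZR (-0.13) and, for LNCaP, 64.2 and 73.5 (0.19), and NPAT, the coactivator of histone transcription, had 46.1 and 44 CPM (-0.07) and 20.7 and 21.7 CPM (0.07). POU2F1 had ratios of 0.14 and 0.23.

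The 18 histone chaperones, which carry histones to DNA, had medians of -0.10 and -0.15, and none passed limma's test. ASF1B, an S-phase chaperone of H3 and H4, was lowest in C4-2B ENZR with 54.5 and 43.4 CPM (-0.33), and had 52.5 and 36.9 CPM in LNCaP (-0.50). NAP1L1, a chaperone of H2A and H2B and the most abundant of the list, went from 717 to 789 CPM (0.14) and from 989.8 to 1369 CPM (0.47), the highest LNCaP ratio. MCM2 had the lowest there, -0.51. Of 29 DNA replication genes 2 fell (6.9%; all genes 0.742%) and none rose. PCNA, the sliding clamp, fell from 183 to 108 CPM in C4-2B ENZR and, for LNCaP, from 83.8 to 40.7 (mean log2 ratio -0.90, SE 0.12, limma adjusted p = 7.02e-05). MCM5, a subunit of the replicative helicase, fell from 149 to 117 and from 79 to 50.8 CPM (-0.50, SE 0.12, limma adjusted p = 0.0247), a call that did not hold with recomputed TMM (limma adjusted p = 0.0829, edgeR 0.0581) or with no filter (limma adjusted p = 0.127). The list's medians were -0.19 in C4-2B ENZR and -0.34 in LNCaP, with 25 of 29 genes lower in each line (86.2%), against 49% of all genes in C4-2B ENZR and 35.2% in LNCaP, whose medians were 0 and 0.11. In LNCaP replication genes were mostly lower, and the sum of the histone cluster genes was higher, with a log2 ratio of 0.61. The sum ratio was 0.77 for the polyadenylated subset and 0.24 for the other members. It was -0.04 for H2B outside the subset and 0.01 for H3. The part that the share of cells in S phase has in the histone results was not tested.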

How the data were processed

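Single reads of 50 nt from 4 libraries were processed by the authors. The submitters' processing notes name the build hg19 and the tools edgeR, RSEM 1.2.15 and Bowtie2 2.1.0. Annotation and counting options: not given in the sources used here. Each line has its own table, and the authors scaled the CPM values of C4-2B ENZR by TMM before they deposited them, per the titles of the tables. For LNCaP the authors deposited a signal on the same scale, not plain CPM, since the knockdown column sums to 1064501. Every value was a whole multiple of 1 read within 0.01 read (100% of values), so reads were recovered. The libraries sum to 23479051 to 52550452 reads, and 3 reads, the limit a count of 0 allows, equal 0.0529 to 0.122 CPM. The deposited scaling factors of knockdown over control, on a log2 scale beyond read totals, were 0.0203 in C4-2B ENZR, as recomputed, and 0.2012 in LNCaP, where 0.0829 was recomputed. What caused this gap was not tested.

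Log2 ratios used a pseudocount of 0.25, which understates changes of low genes. Sums and intervals (exact Clopper-Pearson, 95%) used recovered reads without it, and cover counting error only. The test over both lines used limma 3.58.1 (R 4.3.3), with edgeR 4.0.16 and DESeq2 1.42.0 on recovered reads (line as a block) as alternatives. The scripts were tested on simulated data. Nothing in the labels shows separate cultures within a group. Members and lists were chosen with earlier results of these data known. Named members were the 10 most abundant, the 5 highest and 5 lowest ratios of each table, those 2-fold apart, near-identical copies, class leaders and the polyadenylated subset. HIST1H2AG, HIST1H2BL, HIST1H2BN, HIST1H3D, HIST1H3E, HIST1H4H and HIST4H4 were named after their values were seen. Other settings compared were other pseudocounts, filters and scalings, copies summed and members left out. Sequences shared between genes were counted as 50-base stretches of GENCODE release 29 transcripts on either strand.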

Additional observations from a re-analysis of the deposited data

Results flagged for a closer look

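For 5 members with a mean of at least 1 CPM in both lines, the counting intervals lay below equality in C4-2B ENZR and above it in LNCaP. The log2 ratios of HIST1H2AC were -1.02 and 1.00, those of HIST2H2BE -0.69 and 1.22, and those of HIST1H2BK -0.53 and 0.24. HIST2H2AA3 had -0.43 and 0.38, and HIST2H2AA4, its near-identical copy with the same values, also had -0.43 and 0.38, so these count as 1 observation. Each line has 1 library per group, and the difference between the lines was not tested. Enzalutamide differs between the lines as well, so line and drug cannot be told apart. Nor can a batch, which the labels do not name, be told apart from the line.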

How the results depend on the processing

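Each group has 1 library, so no pairing by replicate number can be made within a line; the tests over both lines set each knockdown against the control of its own line, by ratios in limma and with the line as a block in edgeR and DESeq2. In C4-2B ENZR the count of members 2-fold higher was 0 with a pseudocount of 1 or a mean of at least 1 CPM, and the count 2-fold lower was 0 with a pseudocount of 1, 1 with a mean of at least 1 CPM, and 4 with a pseudocount of 0.05, with both libraries set to an equal sum or with TMM recomputed. HIST2H3A and HIST2H3C, at -0.99, lie just inside 2-fold. In LNCaP the count 2-fold lower was 1 with no filter. The summed log2 ratio without the polyadenylated members was -0.32 (C4-2B ENZR) and 0.24 (LNCaP). The LNCaP sum was 0.47 when centred, 0.41 when rescaled to the same sum, 0.49 with recomputed TMM and 0.71 without its most abundant member. With no filter, the LNCaP median was -0.03 over all members and -0.03 over those outside the polyadenylated subset, and by class -0.08 (H1), -0.10 (H3) and -0.03 (H4). Rescaling to the same sum turned the LNCaP medians of H2A to -0.03 and of H3 to -0.12; for H3, centring gave -0.07 and recomputed TMM -0.04. The LNCaP sum of H3 was -0.13 when centred, -0.19 when rescaled and -0.11 with recomputed TMM, and that of H2B was -0.04 without polyadenylated members. In C4-2B ENZR the H1 median was 0.19 with no filter and 0.13 without HIST1H1C, the H1 sum 0.37 without it, and the H2B median 0 without polyadenylated members. Over both lines 1 member rose, HIST1H2BD, with a pseudocount of 0.05, with a mean of at least 1 CPM (limma adjusted p = 0.000252) or by edgeR with the deposited scaling, and 1 fell, HIST1H4J, with a pseudocount of 0.05. Its adjusted p over all alternatives ran from 0.0133 to 0.595, and that of HIST1H2BD from 0.000252 to 0.812. The mean ratio of HIST1H2AC, -0.01, was 0.06 with a pseudocount of 1, 0.21 by edgeR with the deposited scaling and 0.14 with recomputed TMM. DESeq2 gave no adjusted p for 27 of the 33 members. Summing identical copies, and HIST1H4J with HIST1H4K (an alternative chosen after seeing the data), kept the direction of the medians over all members. Depth limits most members, which have under 1 CPM.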
